A study of Mus musculus with 9 samples.

Results

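Integrins and tetraspanins were examined in RAW264.7 cells, a mouse macrophage line, as a set of 53 genes among the 28137 genes of the deposited RNA-seq table. The set was chosen by name and not by expression. It holds the annotated mouse genes for integrin alpha subunits (18 genes) and the beta subunit genes named Itgb with 1 digit (8 genes). A beta subunit gene with a longer name is not in the set. The tetraspanins are those named Tspan or by 1 of the CD symbols Cd9, Cd37, Cd53, Cd63, Cd81, Cd82 and Cd151 (27 genes). All 53 were present in the table. The 9 libraries fell into 3 groups of 3, labeled NC siRNA (the control), SFRP2 siRNA and RAB6A siRNA. Per the labels, all cells were kept in DMEM with 10% FBS, were transfected with 60 nM siRNA for 6 h, stayed in complete medium for 12 h and then received lipopolysaccharide (LPS) at 100 ng/ml, with RNA taken after 24 h. All 3 groups therefore carried siRNA and LPS, and no untransfected or unstimulated cells were compared. The methods of the paper give another medium, another siRNA dose and reagent, another culture time after transfection, and LPS together with IFN-γ. Which of these conditions the libraries had was not resolved here. The titles of all 9 libraries end in 6H, and what this time refers to is not stated. The titles of the SFRP2 siRNA libraries read siRNA-1, siRNA-2 and siRNA-3, and whether each received a different siRNA is not stated, and no purpose of the RAB6A siRNA group is given in the sources used here. No source states that the 3 libraries of a group came from separate cultures, so the p-values measure the spread between these libraries, which may be technical.

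Integrins are cell surface receptors made of 1 alpha and 1 beta subunit. They bind matrix proteins or counter-receptors on other cells, and their short tails reach the actin cytoskeleton through talin, kindlin and other adaptors. In macrophages the leukocyte integrins, which share the beta2 subunit Itgb2, serve adhesion, migration and uptake of opsonized particles, and the beta1 integrins serve adhesion to matrix. Tetraspanins are small proteins that cross the membrane 4 times and gather integrins, proteases and other proteins into membrane domains, and several of them mark exosomes.

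Depth, estimated from the smallest step between FPKM values of each library, ranged from about 32758700 to 47149300 reads. FPKM counts fragments relative to gene length and library size, so levels of different genes are compared here per length. Of 10 macrophage markers, 9 had a mean of at least 0.5 FPKM in every group. Their summed level was 4637 to 5104 FPKM in the NC libraries, 4109 to 4433 in the SFRP2 siRNA libraries and 4012 to 4175 in the RAB6A siRNA libraries. Mertk was the marker near 0. No marker of fibroblasts, epithelial cells, T cells, B cells, platelets, neutrophils or endothelial cells exceeded 1.32 FPKM in any library. Sfrp2 was listed at 2 to 4 reads in each of the 9 libraries, so it gave no check of the SFRP2 label. Rab6a averaged 25.7 ± 1.48 FPKM (SD, n = 3) in the NC libraries and 20.7 ± 0.445 in the RAB6A siRNA libraries, with a log2 fold change of -0.31 (SE 0.06, adjusted p = 0.0024), which was -0.09 (adjusted p = 0.229) after correction for GC content and gene length.

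Most of the expression of the set came from few of the 53 genes. In the NC libraries 2 members had a mean of at least 100 FPKM, 15 lay between 10 and 100, 5 between 1 and 10, 1 between 0.5 and 1, and 30 below 0.5. The 6 highest were the tetraspanins Cd53 and Cd9, the integrin subunits Itgb2 and Itga5, the tetraspanin Cd63 and the integrin subunit Itgb1. Cd53 and Cd9 together held 70.4% to 71.7% of the summed tetraspanin FPKM in the NC libraries, 72.4% to 74.0% in the SFRP2 siRNA libraries and 66.9% to 70.2% in the RAB6A siRNA libraries. Itgb2 alone held 59.8% to 61.7% of the summed beta subunit FPKM in the NC libraries, 56.3% to 59.2% in the SFRP2 siRNA libraries and 72.1% to 73.3% in the RAB6A siRNA libraries. The summed alpha subunit level was lower than the summed beta subunit level in each of the 9 libraries, at 126 to 130 against 145 to 154 FPKM in the NC libraries, 120.7 to 134 against 123 to 135 FPKM in the SFRP2 siRNA libraries, where the sums were closest, and 98.2 to 105 against 171 to 187 FPKM in the RAB6A siRNA libraries.

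**Figure D1:**
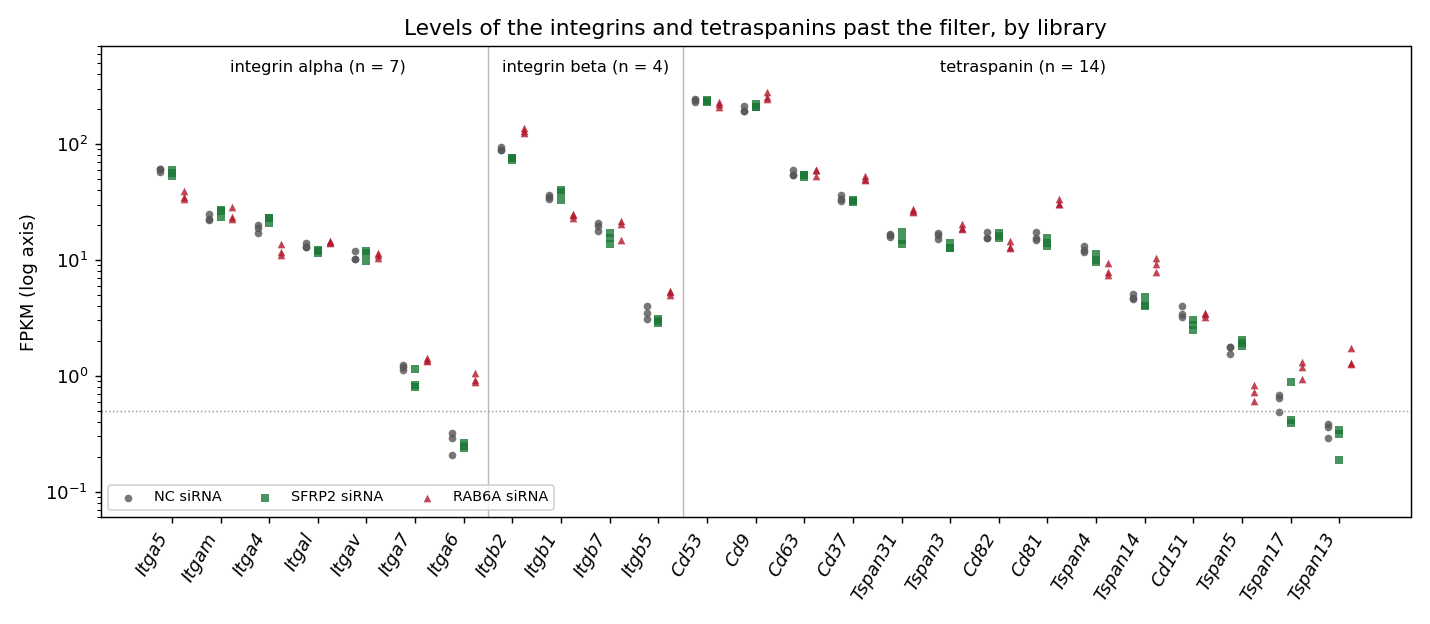
FPKM (log axis) of the 25 members that passed the filter in the comparison of RAB6A siRNA with NC siRNA, with 1 point per library and 3 libraries per group; the dotted line marks 0.5 FPKM. Itga5, Itga4, Itgb1 and Tspan5 sat lower and Itgb2, Cd37, Cd81, Tspan14, Itga6 and Tspan13 sat higher in all 3 RAB6A siRNA libraries than in any NC library.

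For each comparison, limma was run on log2(FPKM + 0.1) over all genes with a mean of at least 0.5 FPKM in the 6 libraries compared. A gene passed at a Benjamini-Hochberg adjusted p under 0.05 and was called a DEG where its absolute log2 fold change was also over 1. Against NC, the RAB6A siRNA libraries differed in most genes tested, and the share of members that passed was near that background. Of 12712 genes tested, 74.1% passed. Of the 53 members, 25 were tested and 17 passed (68.0%), 11 of them higher (background 37.6%) and 6 lower (background 36.5%) with RAB6A siRNA. There were 3 DEGs among them (background 30.1%). The FPKM ranges of the groups did not overlap for 19 of the 25 members, against 77.4% of all genes tested. The median log2 fold change of the 25 was 0.11 and that of all genes tested 0.03. Against NC, no gene passed with SFRP2 siRNA (0 of 12017 tested, 0%), and none of the 23 members tested passed. At an unadjusted p under 0.05 there were 7 such members (background 18.5%), 1 higher (background 7.73%) and 6 lower (background 10.7%). The paper names DESeq2 and reports differentially expressed genes in both directions for SFRP2 siRNA in RAW264.7 cells. The count of 0 genes here holds for the main limma fit on FPKM. Itga6 and Tspan13 entered the comparisons with RAB6A siRNA only through their levels in the RAB6A siRNA libraries, their mean being under 0.5 FPKM in the other groups, so that their difference was bound to be large. Without them, 9 of 23 members were higher and 6 lower with RAB6A siRNA against NC.

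**Figure D2:**
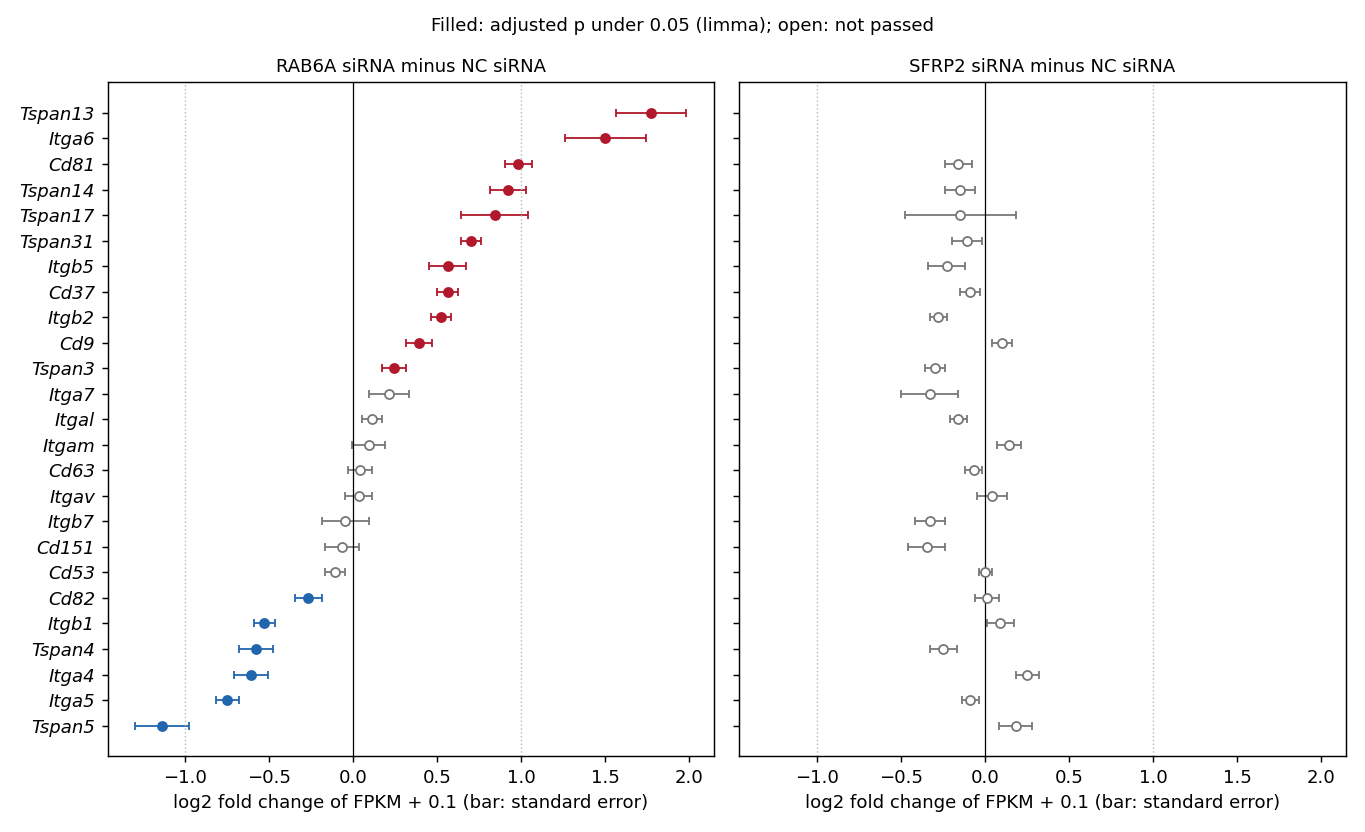
Log2 fold change of FPKM + 0.1 (x axis) with its standard error (bar) for the 25 members against NC, with RAB6A siRNA on the left and SFRP2 siRNA on the right; filled points had an adjusted p under 0.05 in limma, red higher and blue lower, and dotted lines mark a log2 fold change of 1. On the left 17 points are filled and none on the right, where Itga6 and Tspan13 were not tested; both panels share the NC libraries.

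The leukocyte integrins were led by their common beta subunit. Itgb2 (ENSMUSG00000000290, chromosome 10, 77530252 to 77565708, + strand; all gene coordinates are those of GENCODE M21 on GRCm38) had 88.5, 89.3 and 94.9 FPKM in the NC libraries, 76.3, 75.8 and 73.0 FPKM in the SFRP2 siRNA libraries and 129, 136 and 125 FPKM in the RAB6A siRNA libraries. The RAB6A siRNA libraries were all above and the SFRP2 siRNA libraries all below the NC libraries. With RAB6A siRNA Itgb2 rose (log2 fold change 0.52, SE 0.06, adjusted p = 0.000128). With SFRP2 siRNA it was the member of smallest p but did not pass (log2 fold change -0.28, SE 0.05, unadjusted p = 0.000544, adjusted p = 0.163). In a fit of the recovered reads with voom, chosen as an alternative, the adjusted p for SFRP2 siRNA was 0.043, and Itgb2 was then the 1 member to pass among 42 genes (0.353% of those tested).

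The alpha partners of Itgb2 had smaller fold changes with RAB6A siRNA, none of which passed. Itgal (ENSMUSG00000030830, chromosome 7, 127296260 to 127335138, + strand), the alpha subunit of LFA-1, which binds ICAMs, had 12.9, 12.8 and 13.8 FPKM in the NC libraries, 11.5, 12.1 and 11.8 FPKM in the SFRP2 siRNA libraries and 14.3, 13.9 and 14.5 FPKM in the RAB6A siRNA libraries. Its RAB6A siRNA libraries lay above the NC libraries, but the difference did not pass (log2 fold change 0.11, SE 0.06, adjusted p = 0.129); it did after quantile normalization (log2 fold change 0.20, adjusted p = 0.0106) and after correction for GC content and length (0.20, adjusted p = 0.0079). With SFRP2 siRNA the libraries lay below the NC libraries (log2 fold change -0.16, SE 0.05, unadjusted p = 0.016, adjusted p = 0.2). Itgam (ENSMUSG00000030786, chromosome 7, 128062640 to 128118491, + strand), the alpha subunit of the complement receptor Mac-1, had 22.01, 24.7 and 22.7 FPKM in the NC libraries, 26.3, 26.8 and 23.6 FPKM in the SFRP2 siRNA libraries and 22.3, 23.4 and 28.5 FPKM in the RAB6A siRNA libraries. The 3 groups overlapped, and neither comparison passed (log2 fold change 0.09, SE 0.10, adjusted p = 0.435 with RAB6A siRNA; log2 fold change 0.14, SE 0.07, unadjusted p = 0.078, adjusted p = 0.313 with SFRP2 siRNA). After correction for GC content and length the value with RAB6A siRNA was 0.31 (adjusted p = 0.0172). An annotated transcript on the same strand, Gm49368, overlaps exons of Itgam, so their reads may be shared.

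Itgax, the alpha subunit of the complement receptor CD11c/CD18, and Itgad, that of CD11d/CD18, lie next to Itgam on chromosome 7, and both were near 0. The gap between the end of Itgam and the start of Itgax is 11055 bases and that between Itgax and Itgad 3718 bases. Itgax (ENSMUSG00000030789, chromosome 7, 128129547 to 128150657, + strand) had 0.120, 0.0618 and 0.108 FPKM in the NC libraries, 0.164, 0.0589 and 0.0599 FPKM in the SFRP2 siRNA libraries and 0.0687, 0.220 and 0.152 FPKM in the RAB6A siRNA libraries, which is 10 to 40 reads per library. Itgad (ENSMUSG00000070369, chromosome 7, 128154376 to 128223816, + strand) had 0.0373, 0 and 0.0104 FPKM in the NC libraries, 0.0273, 0.0114 and 0.0128 FPKM in the SFRP2 siRNA libraries and 0, 0 and 0.00677 FPKM in the RAB6A siRNA libraries, with at most 7 reads in a library. Both stayed under the filter and were not tested. Within 1 cluster of genes, then, the NC level ranged from 23.1 ± 1.40 FPKM (SD, n = 3) for Itgam to at most 0.120 FPKM in any NC library for its neighbours.

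Among the beta1 integrins, which bind fibronectin, VCAM-1 and other matrix or cell surface proteins, the common subunit and its highest alpha partners were lower with RAB6A siRNA. Itgb1 (ENSMUSG00000025809, chromosome 8, 128685654 to 128733200, + strand) had 36.1, 34.9 and 33.6 FPKM in the NC libraries, 38.2, 40.1 and 33.1 FPKM in the SFRP2 siRNA libraries and 23.1, 24.4 and 24.9 FPKM in the RAB6A siRNA libraries. All RAB6A siRNA libraries lay below all NC libraries, and Itgb1 fell (log2 fold change -0.53, SE 0.06, adjusted p = 9.65e-05). After correction for GC content and length the value was -0.31 (adjusted p = 0.000528). Itga5 (ENSMUSG00000000555, chromosome 15, 103344286 to 103366763, - strand), which pairs with Itgb1 as the classical fibronectin receptor, had 60.7, 57.8 and 61.3 FPKM in the NC libraries, 59.1, 56.7 and 53.0 FPKM in the SFRP2 siRNA libraries and 39.0, 34.97 and 33.4 FPKM in the RAB6A siRNA libraries. It fell as well, again with no overlap (log2 fold change -0.75, SE 0.07, adjusted p = 4.87e-05). Itga4 (ENSMUSG00000027009, chromosome 2, 79255426 to 79333123, + strand), which pairs with Itgb1 or Itgb7 and binds VCAM-1 and fibronectin, had 19.9, 18.9 and 17.1 FPKM in the NC libraries, 22.9, 22.9 and 20.7 FPKM in the SFRP2 siRNA libraries and 11.8, 11.1 and 13.8 FPKM in the RAB6A siRNA libraries. The groups separated with NC in the middle, lowest with RAB6A siRNA (log2 fold change -0.61, SE 0.10, adjusted p = 0.000744). With SFRP2 siRNA Itga4 was the member of smallest p among those with a higher value (log2 fold change 0.25, SE 0.07, unadjusted p = 0.00996, adjusted p = 0.183). The opposite strand gene Cerkl shares exon sequence with Itga4, and the strand setting of the counting is not stated.

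With SFRP2 siRNA Itgb1 and Itga5 did not pass either. Itgb1 had a log2 fold change of 0.09 (95% interval -0.09 to 0.27) and Itga5 of -0.09 (-0.22 to 0.04).

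Itga6 (ENSMUSG00000027111, chromosome 2, 71745616 to 71858416, + strand), a laminin receptor subunit that pairs with Itgb1 or Itgb4, had the largest log2 fold change with RAB6A siRNA among the integrin subunits that passed the filter. It had 0.323, 0.209 and 0.293 FPKM in the NC libraries, 0.262, 0.248 and 0.236 FPKM in the SFRP2 siRNA libraries and 0.879, 0.919 and 1.05 FPKM in the RAB6A siRNA libraries. Every RAB6A siRNA library was above every other library, from a low level (DEG; log2 fold change 1.5, SE 0.24, adjusted p = 0.000867). The pseudocount sets the size of this value, which was 0.61 with a pseudocount of 1 and 1.77 with 0.01, and it was 0.86 after quantile normalization. Its partner Itgb4 stayed at 0.154 to 0.396 FPKM in the 9 libraries and was not tested. Itga7, a further laminin receptor subunit, had 1.23, 1.13 and 1.195 FPKM in the NC libraries, 1.15, 0.804 and 0.839 FPKM in the SFRP2 siRNA libraries and 1.35, 1.44 and 1.36 FPKM in the RAB6A siRNA libraries. Its RAB6A siRNA libraries lay above the NC libraries and the difference did not pass (log2 fold change 0.21, SE 0.12, adjusted p = 0.145). Of the other beta1 partners, Itga1, Itga2, Itga3, Itga8, Itga9, Itga10 and Itga11 were all under the filter. Itgav, which can also pair with Itgb1 and is given below with Itgb5, did not pass with RAB6A siRNA.

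The sequences before the start of members that changed are shown so that those that fell and those that rose can be set side by side. RefSeq promoter entries on GRCm38.p6 were found for 44 of the 53 members, and Itgb2, Itgal and Itga6 had none in the table. Printed are the 250 bases before the start, 5′ to 3′ on the strand of the gene, for 5 members that passed with RAB6A siRNA, each with a window that lies wholly before the gene in GENCODE M21. Capitals mark the core of the PU.1 motif, GAGGAA, and the SP1 box, GGGCGG, each on either strand (TTCCTC and CCGCCC on the other). Itga4, Itga5 and Itgb1 fell and Itgb5 and Tspan14 rose. The 5 were picked by hand and not by a rule. Motif counts were not compared between all members that fell and all that rose, so these 5 show no pattern of the set.
Itga4 (chr2:79255176-79255425, + strand): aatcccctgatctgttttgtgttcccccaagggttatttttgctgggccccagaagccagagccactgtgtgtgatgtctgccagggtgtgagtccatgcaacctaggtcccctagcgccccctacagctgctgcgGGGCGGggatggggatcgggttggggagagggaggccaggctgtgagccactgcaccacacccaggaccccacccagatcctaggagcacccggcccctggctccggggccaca
Itga5 (chr15:103366792-103367041, - strand): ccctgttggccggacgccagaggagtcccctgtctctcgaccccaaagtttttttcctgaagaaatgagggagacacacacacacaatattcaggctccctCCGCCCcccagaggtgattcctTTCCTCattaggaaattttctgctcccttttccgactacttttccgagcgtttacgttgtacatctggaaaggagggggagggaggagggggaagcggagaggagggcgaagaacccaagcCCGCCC
Itgb1 (chr8:128685404-128685653, + strand): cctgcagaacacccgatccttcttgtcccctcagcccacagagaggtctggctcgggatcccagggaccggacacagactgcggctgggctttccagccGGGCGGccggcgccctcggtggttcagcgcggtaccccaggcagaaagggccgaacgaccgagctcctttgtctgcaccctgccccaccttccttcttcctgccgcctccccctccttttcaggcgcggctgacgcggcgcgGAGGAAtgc
Itgb5 (chr16:33829415-33829664, + strand): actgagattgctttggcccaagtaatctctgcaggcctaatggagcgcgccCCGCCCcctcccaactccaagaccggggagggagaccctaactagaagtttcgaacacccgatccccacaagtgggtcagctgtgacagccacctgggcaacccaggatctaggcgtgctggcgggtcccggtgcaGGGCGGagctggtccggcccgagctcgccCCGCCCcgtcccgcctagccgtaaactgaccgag
Tspan14 (chr14:40966897-40967146, - strand): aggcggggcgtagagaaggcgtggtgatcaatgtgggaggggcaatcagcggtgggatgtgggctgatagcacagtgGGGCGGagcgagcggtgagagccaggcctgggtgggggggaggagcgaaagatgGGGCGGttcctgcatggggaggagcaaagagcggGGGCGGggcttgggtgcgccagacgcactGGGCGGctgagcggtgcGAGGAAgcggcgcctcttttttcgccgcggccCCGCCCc

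The window of Itga4 held 1 SP1 box and no PU.1 core, that of Itga5 held 2 SP1 boxes and 1 PU.1 core, and that of Itgb1 held 1 of each. Itgb5 had 3 SP1 boxes and no PU.1 core, and Tspan14 had 5 SP1 boxes and 1 PU.1 core. None of the 5 windows held TATAAA on either strand. Over 32536 windows of this length in the table, 23.4% held a PU.1 core, 33% an SP1 box and 12.3% TATAAA. Over the 56 windows of the matched members, alternative starts included, the shares were 32.1%, 41.1% and 1.79%. These are matches of letters and no measured binding. Spi1, which encodes PU.1, had a mean of 130 FPKM in the NC libraries and 62.9 FPKM in the RAB6A siRNA libraries (log2 fold change -1.05), and its part in the levels of the members was not tested.

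Of the remaining integrins, Itgav and Itgb5 pair as a vitronectin receptor. Itgav had 11.9, 10.3 and 10.2 FPKM in the NC libraries, 11.4, 11.9 and 9.84 FPKM in the SFRP2 siRNA libraries and 11.4, 10.3 and 11.1 FPKM in the RAB6A siRNA libraries and the groups overlapped (log2 fold change 0.03, SE 0.08, adjusted p = 0.787). Itgb5 had 3.45, 3.07 and 4.04 FPKM in the NC libraries, 2.85, 2.99 and 3.10 FPKM in the SFRP2 siRNA libraries and 4.93, 5.31 and 5.36 FPKM in the RAB6A siRNA libraries and rose with RAB6A siRNA (log2 fold change 0.56, SE 0.11, adjusted p = 0.00207). Itgb7 (ENSMUSG00000001281, chromosome 15, 102215995 to 102231944, - strand), the beta subunit of the gut homing receptor with Itga4, had 19.6, 17.7 and 20.9 FPKM in the NC libraries, 17.0, 15.5 and 13.8 FPKM in the SFRP2 siRNA libraries and 21.5, 20.4 and 14.97 FPKM in the RAB6A siRNA libraries. Its RAB6A siRNA libraries spread widely and overlapped the NC libraries (log2 fold change -0.05, SE 0.14, adjusted p = 0.772). The SFRP2 siRNA libraries of Itgb7 lay below the NC libraries, and this did not pass (log2 fold change -0.33, SE 0.09, unadjusted p = 0.00882, adjusted p = 0.182).

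The platelet integrin pair Itga2b and Itgb3 was close to 0 in these cells. Itga2b had 0.0705, 0.0389 and 0.0862 FPKM in the NC libraries, 0.0723, 0.123 and 0.0528 FPKM in the SFRP2 siRNA libraries and 0.439, 0.504 and 0.425 FPKM in the RAB6A siRNA libraries. All RAB6A siRNA libraries were above the others but the mean stayed under the filter. With no filter its log2 fold change was 1.76 (adjusted p = 0.00131), from 10 to 104 reads per library, which is above the 1.5 of Itga6 in the same fit. Of all genes 40.4% passed in that fit. Itgb3, which also pairs with Itgav in osteoclasts, had 0.155, 0.122 and 0.203 FPKM in the NC libraries, 0.192, 0.0785 and 0.127 FPKM in the SFRP2 siRNA libraries and 0.0746, 0.143 and 0.0414 FPKM in the RAB6A siRNA libraries and did not pass in that fit (log2 fold change -0.51, adjusted p = 0.212). Itgae, Itgb6 and Itgb8, the remaining integrins of the set, were under the filter as well.

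Of the 3 most abundant tetraspanins, Cd9 was the 1 to pass with RAB6A siRNA. Cd53 (ENSMUSG00000040747, chromosome 3, 106759921 to 106790149, - strand), a tetraspanin of leukocytes, had 229, 242 and 238 FPKM in the NC libraries, 236, 241 and 231 FPKM in the SFRP2 siRNA libraries and 209, 229 and 219 FPKM in the RAB6A siRNA libraries. The groups overlapped and Cd53 did not pass (log2 fold change -0.11, SE 0.06, adjusted p = 0.136), although it did after quantile normalization (-0.42, adjusted p = 0.000416) and after correction for GC content and length (-0.35, adjusted p = 0.00255). Cd9 (ENSMUSG00000030342, chromosome 6, 125460266 to 125494791, - strand), known for its part in fusion of membranes and as an exosome marker, had 191, 211 and 193 FPKM in the NC libraries, 209, 221 and 207 FPKM in the SFRP2 siRNA libraries and 253, 246 and 283 FPKM in the RAB6A siRNA libraries. The RAB6A siRNA libraries were the highest and Cd9 rose (log2 fold change 0.39, SE 0.08, adjusted p = 0.00214), but after quantile normalization its log2 fold change was 0.09 (adjusted p = 0.406). With SFRP2 siRNA Cd9 had 1 of the 3 smallest p-values among members with a higher value (log2 fold change 0.10, SE 0.06, unadjusted p = 0.114, adjusted p = 0.365). Cd63 (ENSMUSG00000025351, chromosome 10, 128900989 to 128912822, + strand), a tetraspanin of late endosomes and exosomes, had 54.1, 59.1 and 54.3 FPKM in the NC libraries, 53.7, 54.1 and 51.6 FPKM in the SFRP2 siRNA libraries and 59.5, 59.9 and 53.2 FPKM in the RAB6A siRNA libraries. Its 95% interval of the log2 fold change with RAB6A siRNA was -0.12 to 0.20 (log2 fold change 0.04, SE 0.07, adjusted p = 0.592).

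Cd37 and Cd81 were both higher with RAB6A siRNA. Cd37 (ENSMUSG00000030798, chromosome 7, 45233632 to 45239115, - strand), a tetraspanin of immune cells, had 33.5, 32.5 and 36.5 FPKM in the NC libraries, 31.4, 32.0 and 33.1 FPKM in the SFRP2 siRNA libraries and 52.4, 49.3 and 49.5 FPKM in the RAB6A siRNA libraries and rose (log2 fold change 0.56, SE 0.06, adjusted p = 0.000117). Cd81 (ENSMUSG00000037706, chromosome 7, 143052739 to 143067934, + strand), a partner of Cd9 that also binds integrins, had 14.9, 15.3 and 17.3 FPKM in the NC libraries, 15.6, 13.1 and 13.9 FPKM in the SFRP2 siRNA libraries and 30.1, 33.6 and 30.1 FPKM in the RAB6A siRNA libraries. Each RAB6A siRNA library was above 30 FPKM and no other library was above 17.3 FPKM (log2 fold change 0.98, SE 0.08, adjusted p = 2.19e-05). Cd82, named for suppression of metastasis, had 17.4, 15.6 and 15.4 FPKM in the NC libraries, 16.2, 15.4 and 17.1 FPKM in the SFRP2 siRNA libraries and 12.7, 14.6 and 12.9 FPKM in the RAB6A siRNA libraries. It fell slightly (log2 fold change -0.27, SE 0.08, adjusted p = 0.0173), and the adjusted p was 0.0634 without NC replicate 1, 0.0565 without RAB6A siRNA replicate 1 and 0.11 after quantile normalization. Cd151, a partner of laminin-binding integrins, had 3.19, 3.38 and 4.03 FPKM in the NC libraries, 3.00, 2.72 and 2.49 FPKM in the SFRP2 siRNA libraries and 3.41, 3.45 and 3.21 FPKM in the RAB6A siRNA libraries and overlapped between NC and RAB6A siRNA (log2 fold change -0.07, SE 0.10, adjusted p = 0.58). Cd37, Cd9, Cd81 and Cd151 each share exon sequence with a gene on the opposite strand (Tead2, Gm26728, R74862 and Gm10575), as does Tspan31 with Cdk4. The same holds for Tspan4 with Chid1, Itga7 with Mettl7b and Itgav with Gm13684.

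The TspanC8 tetraspanins, which escort the protease Adam10 to the cell surface and steer what it cuts, were split. Tspan5 (ENSMUSG00000028152, chromosome 3, 138742195 to 138907905, + strand) had 1.76, 1.76 and 1.54 FPKM in the NC libraries, 2.06, 1.92 and 1.81 FPKM in the SFRP2 siRNA libraries and 0.607, 0.719 and 0.826 FPKM in the RAB6A siRNA libraries. All groups were apart, and Tspan5 fell with RAB6A siRNA, the largest fall among the members tested (DEG; log2 fold change -1.14, SE 0.16, adjusted p = 0.000357). With a pseudocount of 1 its value was -0.65, no longer a DEG and a smaller fall than the -0.73 of Itga5. Tspan14 (ENSMUSG00000037824, chromosome 14, 40906445 to 40966807, - strand) had 4.70, 4.55 and 5.05 FPKM in the NC libraries, 4.82, 4.11 and 3.98 FPKM in the SFRP2 siRNA libraries and 10.4, 9.26 and 7.88 FPKM in the RAB6A siRNA libraries and rose (log2 fold change 0.92, SE 0.11, adjusted p = 0.000142). Tspan17 had 0.638, 0.486 and 0.681 FPKM in the NC libraries, 0.417, 0.388 and 0.886 FPKM in the SFRP2 siRNA libraries and 0.947, 1.32 and 1.197 FPKM in the RAB6A siRNA libraries, with 25 to 83 reads per library. It rose as well (log2 fold change 0.84, SE 0.20, adjusted p = 0.00667), but the adjusted p was 0.121 after quantile normalization and 0.0768 after correction for GC content and length, and the log2 fold change 0.40 and 0.43. The other TspanC8 members, Tspan10, Tspan15 and Tspan33, had at most 6 reads in any library. Adam10 itself was lower with RAB6A siRNA (log2 fold change -0.80, SE 0.07, adjusted p = 2.71e-05).

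Of the other tetraspanins, Tspan13 (ENSMUSG00000020577, chromosome 12, 36014557 to 36042500, - strand) had 0.291, 0.360 and 0.380 FPKM in the NC libraries, 0.339, 0.312 and 0.186 FPKM in the SFRP2 siRNA libraries and 1.72, 1.29 and 1.26 FPKM in the RAB6A siRNA libraries. It had the largest log2 fold change of the members tested with RAB6A siRNA, from 16 to 155 reads per library (DEG; log2 fold change 1.77, SE 0.21, adjusted p = 0.000153), and this value was 0.85 with a pseudocount of 1 and 2.01 with 0.01. Tspan31 had 15.8, 16.5 and 16.8 FPKM in the NC libraries, 17.4, 14.7 and 13.6 FPKM in the SFRP2 siRNA libraries and 27.6, 25.9 and 26.5 FPKM in the RAB6A siRNA libraries and rose (log2 fold change 0.70, SE 0.06, adjusted p = 2.03e-05). Tspan3 (ENSMUSG00000032324, chromosome 9, 56131725 to 56165477, - strand) had 15.2, 16.9 and 16.4 FPKM in the NC libraries, 12.7, 14.0 and 12.7 FPKM in the SFRP2 siRNA libraries and 20.3, 18.4 and 18.7 FPKM in the RAB6A siRNA libraries. It rose with RAB6A siRNA (log2 fold change 0.24, SE 0.07, adjusted p = 0.0121; 0.47 after correction for GC content and length), whereas the SFRP2 siRNA libraries lay below the NC libraries without passing (log2 fold change -0.30, SE 0.06, unadjusted p = 0.00219, adjusted p = 0.167). Tspan4, known from the migrasomes that crawling cells leave behind, had 13.1, 11.7 and 12.1 FPKM in the NC libraries, 11.3, 9.50 and 10.1 FPKM in the SFRP2 siRNA libraries and 7.91, 9.32 and 7.33 FPKM in the RAB6A siRNA libraries and fell with RAB6A siRNA (log2 fold change -0.58, SE 0.10, adjusted p = 0.00103). Tspan4 and Cd151 lie 3766 bases apart on chromosome 7, and with RAB6A siRNA Tspan4 passed and Cd151 did not.

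In all, 28 members stayed under the filter in every comparison, namely 11 alpha subunits, 4 beta subunits and 13 tetraspanins. The highest of their values was 0.903 FPKM, or 195 reads, for Itga3 in 1 RAB6A siRNA library. Under 10 reads in every library were found for 11 of them, and 13 had a library at 0. Among the tetraspanins this group holds Tspan7, Tspan8 and Tspan9, which were between 0.0491 and 0.668 FPKM in the 9 libraries, and Tspan6, Tspan11, Tspan12 and Tspan32, which had at most 32 reads in a library. With no filter, Itga2b and Tspan11 passed with RAB6A siRNA against NC and no other of the 28. Tspan11 had 0 to 4 reads in the NC libraries, 2 to 4 in the SFRP2 siRNA libraries and 8 to 32 in the RAB6A siRNA libraries (log2 fold change 0.76, adjusted p = 0.0469). Absence of the other transcripts was not shown at this depth. In bulk RNA a lower level per cell and a smaller share of cells that express a gene cannot be told apart.

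Ratios between members within a library, which do not depend on scaling between libraries, were computed for 5 pairs chosen after the values were seen. The ratio of Itgb2 to Itgb1 was 2.45 to 2.83 in the NC libraries, 1.89 to 2.20 in the SFRP2 siRNA libraries and 5.03 to 5.59 in the RAB6A siRNA libraries. The summed level of the alpha partners Itgal, Itgam, Itgax and Itgad was 0.386 to 0.421 of the Itgb2 level in the NC libraries, 0.486 to 0.514 with SFRP2 siRNA and 0.276 to 0.344 with RAB6A siRNA. For both of these ratios the 3 groups lay apart. The ratio of Itga4 plus Itga5 to Itgb1 was 2.20 to 2.34 in the NC libraries and overlapped with the 1.98 to 2.23 of the SFRP2 siRNA libraries. In the RAB6A siRNA libraries it was 1.89 to 2.20. The highest of these, at 2.199, lay just above the lowest NC value of 2.197, and the other RAB6A siRNA libraries were at 1.893. Among the tetraspanins, the ratio of Cd81 to Cd82 was 0.854 to 1.119 in the NC libraries, 0.813 to 0.960 with SFRP2 siRNA and 2.30 to 2.37 with RAB6A siRNA. The ratio of Tspan14 to Tspan5 was 2.58 to 3.27 in the NC libraries, 2.14 to 2.35 with SFRP2 siRNA and 9.54 to 17.1 with RAB6A siRNA. An exact two-sided permutation test gave p = 0.1 wherever groups lay apart, the smallest value that 3 against 3 libraries allow (0.136 after adjustment over 15 tests).

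**Figure D3:**
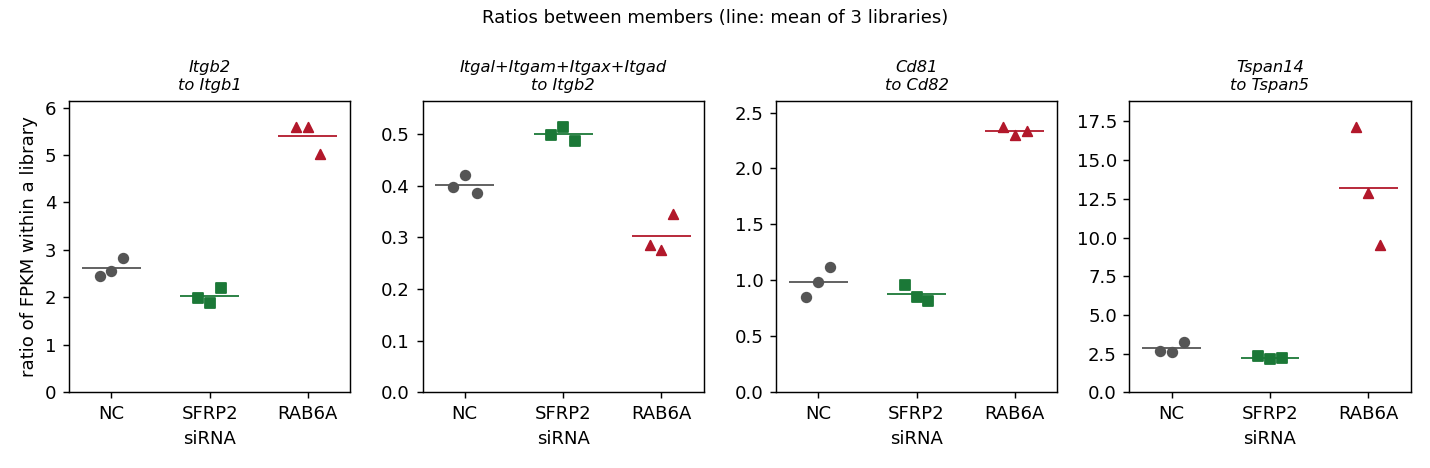
Ratios of FPKM within each library (y axis, from 0) for 4 pairs of members, with 1 point per library and the mean of 3 libraries as a line. The Itgb2 to Itgb1 ratio was 2.45 to 2.83 with NC siRNA and 5.03 to 5.59 with RAB6A siRNA, and the Tspan14 to Tspan5 ratio 2.58 to 3.27 and 9.54 to 17.1.

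The SFRP2 siRNA and RAB6A siRNA groups were also compared directly, which tests the difference between the comparisons against the shared NC libraries. Of 12764 genes tested, 73.4% passed. Of the 25 members tested, 20 passed, 6 higher (background 35.8%) and 14 lower (background 37.6%) with SFRP2 siRNA. There were 5 DEGs among them (background 31.1%). These include Itga6 and Tspan13, which entered only through the RAB6A siRNA libraries, so that their difference was bound to be large. Without Itga6 and Tspan13, 6 of 23 members were higher and 12 lower with SFRP2 siRNA. The matrix-binding subunits were split. Itga4 was higher with SFRP2 siRNA (log2 fold change 0.86, SE 0.09, adjusted p = 0.000128), as were Itga5 and Itgb1, at 0.65 and 0.62 on the log2 scale, and the value of Itgb1 was 0.34 after correction for GC content and length. Itga6 (log2 fold change -1.59, SE 0.23, adjusted p = 0.000616) and Itgb5 (log2 fold change -0.78, SE 0.07, adjusted p = 7.39e-05) were lower with SFRP2 siRNA, and Itgav did not pass (log2 fold change 0.01, SE 0.09, adjusted p = 0.915). Itgb2 was lower (log2 fold change -0.79, SE 0.06, adjusted p = 1.8e-05). Tspan5 was higher (log2 fold change 1.32, SE 0.15, adjusted p = 0.000184), and Cd81, Tspan14 and Tspan13 were lower, at -1.14, -1.07 and -2.02. With a pseudocount of 1 the values were 0.77 for Tspan5, -0.92 for Tspan13 and -0.64 for Itga6. For Itgal the direct difference passed (log2 fold change -0.27, SE 0.05, adjusted p = 0.00289), which neither comparison with NC had done.

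Calls of 4 members in this direct comparison lay close to the threshold and were lost in fits with fewer libraries, while their fold changes stayed in the same direction. For Cd151 (log2 fold change -0.29, and -0.35 to -0.22 without 1 library in turn) the adjusted p was 0.067 and 0.0747 without SFRP2 siRNA replicate 2 or 3, and 0.0707 and 0.0765 without RAB6A siRNA replicate 1 or 2. For Itga7 (-0.54, -0.69 to -0.45) it was 0.0673, 0.06, 0.0507 and 0.0638 without the same 4 libraries. For Tspan4 (0.33, 0.25 to 0.42) it was 0.0854 and 0.0516 without SFRP2 siRNA replicate 1 or 3, and 0.074 and 0.0739 without RAB6A siRNA replicate 1 or 3. For Tspan17 (-0.99, -1.31 to -0.80) it was 0.0663 and 0.0675 without SFRP2 siRNA replicate 1 or 2, and 0.0753 and 0.0612 without RAB6A siRNA replicate 2 or 3. Itgb7 and Cd63, which had not passed, did so without RAB6A siRNA replicate 3 (adjusted p = 0.00675 and 0.0235). After quantile normalization the fold changes were smaller and did not pass for Cd151 (-0.19, adjusted p = 0.0777), Itga7 (-0.22, adjusted p = 0.239), Tspan17 (-0.57, adjusted p = 0.138) and Cd82 (0.18, adjusted p = 0.0901). After correction for GC content and length they did not pass for Cd151 (-0.17, adjusted p = 0.0814), Itga7 (-0.37, adjusted p = 0.0557) and Tspan17 (-0.45, adjusted p = 0.235). Cd53, which had not passed, did so in both settings (0.52, adjusted p = 0.000205 and 0.23, adjusted p = 0.0134).

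Genes that work with integrins and tetraspanins were counted from 5 lists written from general knowledge. Among 40 integrin ligands, 17 were tested in RAB6A siRNA against NC, and 13 were higher, 2 lower and 2 did not pass, with a median of 0.86 on the log2 scale. Over all genes tested, 37.6% were higher and 36.5% lower, with a median of 0.03. Jam2, Col1a2, Col4a1 and Col4a2 entered only through the RAB6A siRNA libraries, and Icam2 only through the NC libraries, so that their difference was bound to be large, and without these 5 genes 9 of 12 were higher and 1 lower (median 0.73). The largest rises were those of Edil3, a ligand of Itgav integrins (log2 fold change 3.20, SE 0.09, adjusted p = 8.26e-07), and of fibronectin, Fn1 (log2 fold change 1.94, SE 0.37, adjusted p = 0.00214), the ligand of the Itga5 and Itgb1 pair. Fn1 was at 6.72, 17.0 and 8.19 FPKM in the RAB6A siRNA libraries, of which replicate 2 was also the highest for Col4a1, Col4a2, Tnc, Thbs1 and the epithelial marker Krt8, and its log2 fold change was 1.55 without that library. The 5 fibroblast markers summed to 1.25 to 2.41 FPKM in the NC libraries, 1.40 to 2.44 in the SFRP2 siRNA libraries and 2.03 to 3.28 in the RAB6A siRNA libraries, and none was at 0 throughout a group. Col1a2 (log2 fold change 1.17, adjusted p = 0.00568) and Dcn (0.81, adjusted p = 0.0449) passed among them, both entering only through the RAB6A siRNA libraries, whereas Col1a1 did not pass (-0.08, adjusted p = 0.858). Their part in the levels of the ligands was not tested. The falls were those of Icam2, a ligand of Itgal with Itgb2 (log2 fold change -2.87, SE 0.42, adjusted p = 0.00051), and of Tgfb1, which Itgav integrins activate (log2 fold change -0.24, SE 0.06, adjusted p = 0.00751). Icam1, the main ligand of Itgal with Itgb2, did not pass (log2 fold change -0.05, SE 0.06, adjusted p = 0.523).

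Among 44 genes for integrin activation and adhesion adaptors, 37 were tested, and 12 were higher, 18 lower and 7 did not pass (median -0.16). The share that passed, 81.1%, was near the 74.1% of all genes tested. The largest rises were those of Cyth1, a guanine exchange factor that binds the Itgb2 tail (log2 fold change 1.34, SE 0.10, adjusted p = 1.65e-05), and of Lims2, a partner of integrin-linked kinase (log2 fold change 1.13, SE 0.08, adjusted p = 1.15e-05). The largest falls were those of Rap1b, a GTPase that activates integrins (log2 fold change -1.23, SE 0.06, adjusted p = 2.32e-06), and of Arhgef6, an exchange factor at adhesions (log2 fold change -1.23, SE 0.09, adjusted p = 1.36e-05). Talin, Tln1, was slightly lower (log2 fold change -0.19, SE 0.07, adjusted p = 0.0339), with an adjusted p of 0.117 and 0.0881 without NC replicate 1 or 3 and of 0.0705 without RAB6A siRNA replicate 3. The leukocyte kindlin Fermt3 did not pass (log2 fold change 0.05, SE 0.07, adjusted p = 0.546).

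Among 29 tetraspanin partners, 19 were tested, and 5 were higher, 8 lower and 6 did not pass (median -0.21), a share of 68.4% that passed against 74.1% of all genes tested. The largest rises were those of Timp1, a protease inhibitor that binds Cd63 and that entered only through the RAB6A siRNA libraries (log2 fold change 1.98, SE 0.20, adjusted p = 6.29e-05), and of Ifitm1 (log2 fold change 1.90, SE 0.22, adjusted p = 0.000157). The largest falls were those of the proteases Adam17 (log2 fold change -1.05, SE 0.07, adjusted p = 8.35e-06) and Adam10. A further list of 6 genes held Dcstamp, which serves macrophage fusion, and osteoclast genes that are not all fusion genes themselves. Of these 6 genes, 5 were tested and all passed, where 74.1% of all genes tested did. Dcstamp was higher (log2 fold change 0.77, SE 0.05, adjusted p = 8.63e-06), and Nfatc1, Ctsk, Atp6v0d2 and Acp5 were lower. The osteoclast enzyme genes Acp5 (log2 fold change -1.99, SE 0.11, adjusted p = 4.66e-06) and Ctsk (log2 fold change -1.29, SE 0.27, adjusted p = 0.00357) fell the most. The call of Nfatc1 (log2 fold change -0.22) was lost in several fits with fewer libraries. Its adjusted p was 0.0872 and 0.0777 without NC replicate 1 or 3, and 0.0765 and 0.0681 without RAB6A siRNA replicate 1 or 2. Of 4 tetraspanin superfamily genes that the choice by name left out, 2 were tested and neither passed. In SFRP2 siRNA against NC, no gene of the 5 lists passed in limma.

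**Figure D4:**
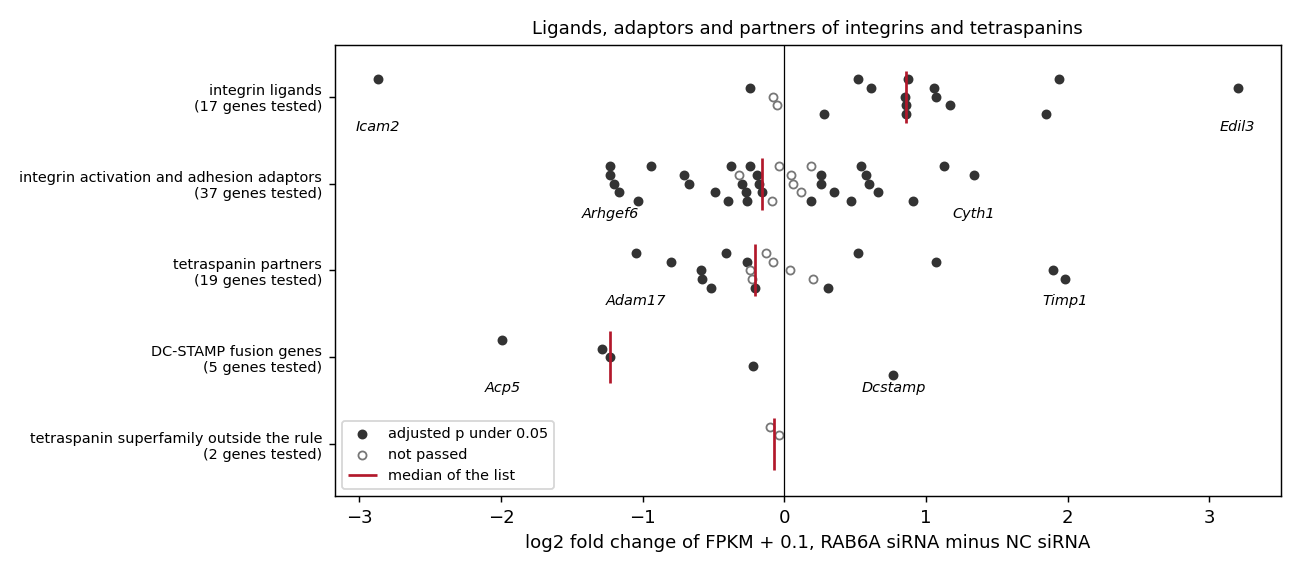
Log2 fold change of FPKM + 0.1 in RAB6A siRNA against NC siRNA (x axis) for the tested genes of 5 lists (rows), with filled points at an adjusted p under 0.05, open points otherwise and a line at the median of each list. The medians were 0.86 for integrin ligands, -0.16 for activation and adhesion adaptors and -0.21 for tetraspanin partners. They were -1.23 for the row labeled DC-STAMP fusion genes, which also holds osteoclast genes, and -0.07 for the superfamily genes. Vertical offsets within a row only separate the points.

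Macrophage markers were counted in the comparison of RAB6A siRNA with NC as well. Of the 10 markers 9 were tested, and 5 were lower (background 36.5%), 1 higher (background 37.6%) and 3 did not pass. Over all genes tested 74.1% passed. The lower ones were Csf1r, Lyz2, Spi1, Fcgr1 and Msr1, with log2 fold changes of -1.44, -2.03, -1.05, -0.75 and -0.41. Ptprc was higher (0.17, adjusted p = 0.0285), and Adgre1, Cd14 and Cd68 did not pass. Whether this bears on the integrins and tetraspanins was not tested. Members of the set had a median GC content of 51.0% among those tested in this comparison, against 49.2% over all genes tested, and after correction for GC content and length 19 members passed in place of 17, and 74.6% of all genes in place of 74.1%.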

How the data were processed

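RNA-seq was measured in 9 libraries of RAW264.7 cells, 3 per group, grouped by the treatment label. Libraries were paired-end, from total RNA. The authors deposited FPKM per Ensembl gene and library. Their processing notes name HISAT2, featureCounts and Subread; versions, genome build, annotation and strand setting are not given in the sources used here. Of 28137 identifiers, 27533 were named from GENCODE M21 (GRCm38), and 604 were not named. FPKM multiplied by exon length gave whole reads within 0.03 in all 9 libraries for 27084 genes (98.4% of those named). These reads were used for depth and for a fit with voom, and no reads are given for Itga6 and Tspan4, whose values did not come out whole. No 2 libraries held identical values.

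The paper's methods name DESeq2. As the deposited unit is FPKM, log2(FPKM + 0.1) was tested with limma 3.58.1 in R 4.3.3 (lmFit, then trended eBayes). Genes entered with at least 0.5 FPKM on average in the 6 libraries of the comparison, and p-values were adjusted over all of them by Benjamini-Hochberg; fold changes on this scale understate those of low genes. Genes passed at an adjusted p of 0.05. The fit was also run on simulated data in which few genes changed, unlike the comparisons with RAB6A siRNA. That run does not bear on the calls in those comparisons. Ratios were compared by an exact permutation test in scipy 1.17.1 (Python 3.11.15). The 53 members and the gene lists were chosen with earlier results of these data known. Values in every library were to be given for the 6 members highest in NC, the beta2 integrins, DEGs with RAB6A siRNA and, with SFRP2 siRNA, the 3 smallest p in each direction, and from each list the 2 largest rises and falls; further members and genes named were chosen after their values were seen. Alternatives were leaving out each library, pseudocounts of 0.01 and 1, no filter and a stricter filter (mean of 1 FPKM), quantile normalization, scaling by the median of ratios, untrended eBayes, a fit over all 9 libraries, a block for the replicate number, voom on the recovered reads, and correction for GC content and length by splines with 5 degrees of freedom. Counts without genes that entered through the level of 1 group alone were added after the data were seen.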

Additional observations from a re-analysis of the deposited data

How the results depend on the processing

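With RAB6A siRNA against NC, 15 of the 25 members kept their direction and side of the threshold in all 17 alternatives, as did 16 of 23 with SFRP2 siRNA against NC and 14 of 25 in the direct comparison. The number of members that passed was 16 to 17 without 1 library in turn with RAB6A siRNA, 0 with SFRP2 siRNA and 17 to 20 in the direct comparison. No same-numbered pairing was found: deviations of same-numbered libraries correlated at -0.0847 to 0.0477 over 9 pairs. With the replicate number as a block 17, 0 and 21 members passed, and Itgb7 was the additional 1 in the direct comparison (-0.28, adjusted p = 0.0221). Over all genes tested, 74.1%, 0% and 73.4% passed in the main fits. For the comparisons with RAB6A siRNA, shares over all genes without 1 library or with the block are not given here. Whether the member counts in those fits follow the background was not tested. With voom, 1 member and 42 genes passed with SFRP2 siRNA, and leaving out 1 library gave 0 to 1 genes, the 1 without NC replicate 1. DEGs among members with RAB6A siRNA numbered 0 with a pseudocount of 1, 1 at a mean of at least 1 FPKM, where Itga6 and Tspan13 were not tested, and 3 to 5 without 1 library (5 without RAB6A siRNA replicate 3). In the direct comparison they numbered 1 and 3 in the former 2 settings. Of all genes tested in the main fits, 30.1% were DEGs with RAB6A siRNA against NC and 31.1% in the direct comparison. Shares of DEGs over all genes in the other settings are not given here. Of the superfamily genes outside the set, 1 passed after quantile normalization and 1 after correction for GC content and length; the cause was not tested.

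Members that had not passed changed sign as follows. After quantile normalization the log2 fold change with RAB6A siRNA was -0.11 for Itga7 and 0.07 for Itgb7, and in the direct comparison -0.04 for Itgav and -0.06 for Itgam, while Cd9, which had passed there, was at 0.16 (adjusted p = 0.107). After correction for GC content and length it was -0.05 for Itgav, 0.04 for Cd37, 0.06 for Cd63 and 0.02 for Itga5 with SFRP2 siRNA, and -0.22 for Itgav (adjusted p = 0.0273), -0.15 for Itgam and 0.05 for Cd63 in the direct comparison. Without 1 library the values with RAB6A siRNA were -0.01 to 0.10 for Itgav, -0.02 to 0.16 for Itgam, -0.13 to 0.03 for Cd151 and -0.15 to 0.11 for Itgb7. With SFRP2 siRNA they were -0.03 to 0.06 for Cd82, -0.02 to 0.12 for Itgav and -0.47 to 0.03 for Tspan17, and in the direct comparison -0.04 to 0.09 for Itgav and -0.02 to 0.16 for Itgam. The cause was not tested. Another scaling moved the median of all genes by less than 0.1.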
